A study of Mus musculus with 34 samples.

Results

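T5635931 is a screening compound that entered the study as an inhibitor of microexon splicing, and its effect on splicing and gene expression was measured by RNA-Seq in 1 library of treated Neuro-2A (N2A) cells against 3 libraries of cells that received only the solvent, dimethyl sulfoxide (DMSO). These 4 libraries were taken by their labels from the 34 of the series. N2A is a mouse neuroblastoma cell line, and all 4 libraries were made from polyadenylated RNA after 24 h. The treated library carries the label OICR.24K.Dissimilar_40_D08 (6.7 µM in the study's compound list), and every library, DMSO controls included, had 0.4% DMSO in the medium. The target of the compound is not stated in the sources used here. The treated condition is a single culture of a single cell line, so its own spread is not known and all replicate error below comes from the 3 DMSO libraries, called A, B and C. The study's reporting summary counts fewer biological replicates of DMSO than the labels name, so part of that spread may be technical.

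Microexons are exons of at most 27 nt, most of which insert a few amino acids into a protein without shifting its reading frame. They are included mainly in neurons, where the serine/arginine-rich proteins Srrm4 and Srrm3 bind upstream of them and help the splicing machinery recognise exons that would otherwise be too short. Many microexon host genes act in the cytoskeleton, vesicle traffic, GTPase signalling and chromatin. Inclusion is given below as percent spliced in (PSI), the share of transcripts, in percent, that carry the exon, and ∆PSI is the treated PSI minus the mean PSI of the DMSO libraries.

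Cassette exon and microexon events together held 59305342 reads in the treated library and 37427027 to 75978445 reads in the DMSO libraries, where a read can count in more than one event. DMSO C was the shallowest. For events measured in all 3 DMSO libraries and with a mean DMSO PSI of 10 to 90, the SD between DMSO libraries had a median of 2.99 PSI over 142 microexons and 3.29 PSI over 2499 longer cassette exons. The cell line carried its labelled markers. Of 26 genes on the neuronal and neuroendocrine list 21 were above 5 RPKM (reads per kilobase of transcript, scaled to library size) in either condition, and 20 in DMSO. The difference is Rest (4.74 RPKM in DMSO, 6.01 RPKM treated), which the study describes as a repressor of neurogenesis genes. Of 12 neuroblastoma lineage factors 10 were above 5 RPKM, among them Hand2 at 248 RPKM in DMSO and 216 RPKM in the treated library. No marker on the lists for fibroblasts (7 genes), glia (7), immune cells (6), epithelium (6) or endothelium (5) was above 5 RPKM in either condition, and the summed levels per list were 0.24 to 3.5 RPKM in DMSO and 0.43 to 4.25 RPKM in the treated library. The highest treated sum was that of the immune list, through Cd68 (0.56 RPKM in DMSO, 4.15 RPKM treated).

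The sequences of 13 microexons whose values follow are given here to show how short these exons are and how they sit in the mRNA, with 11 that decreased, Trappc9 as one that was not called and Ccnl1 as one that increased. Each line is the spliced transcript 5′ to 3′ from GENCODE vM21 (GRCm38), with the microexon in capitals between 20 bases of each neighbouring exon in lower case. The exons were matched by chromosome, length and both flanking intron lengths, since the splicing table uses the older mm9 coordinates.
Clasp2 24 nt, chr9:113878750-113878773, plus strand: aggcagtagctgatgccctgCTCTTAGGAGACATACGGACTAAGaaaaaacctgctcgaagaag
Synj1 24 nt, chr16:90971564-90971587, minus strand: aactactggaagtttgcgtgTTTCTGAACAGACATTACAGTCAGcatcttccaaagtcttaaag
Shank2 9 nt, chr7:144396638-144396646, plus strand: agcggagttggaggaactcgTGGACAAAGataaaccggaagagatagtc
Dctn1 15 nt, chr6:83197319-83197333, plus strand: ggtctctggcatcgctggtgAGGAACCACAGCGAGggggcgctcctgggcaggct
Mast2 21 nt, chr4:116333413-116333433, minus strand: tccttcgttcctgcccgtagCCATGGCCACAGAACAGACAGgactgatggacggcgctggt
Dock4 27 nt, chr12:40794597-40794623, plus strand: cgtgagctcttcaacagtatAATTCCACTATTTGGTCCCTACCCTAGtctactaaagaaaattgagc
Phf21a 23 nt, chr2:92351609-92351631, plus strand: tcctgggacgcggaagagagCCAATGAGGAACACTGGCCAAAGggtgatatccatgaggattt
Sh3glb1 24 nt, chr3:144699854-144699877, minus strand: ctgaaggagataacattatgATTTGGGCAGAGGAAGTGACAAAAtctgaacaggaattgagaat
Mef2d 21 nt, chr3:88161781-88161801, plus strand: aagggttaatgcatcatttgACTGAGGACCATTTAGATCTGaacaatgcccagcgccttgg
Ergic3 15 nt, chr2:156015377-156015391, plus strand: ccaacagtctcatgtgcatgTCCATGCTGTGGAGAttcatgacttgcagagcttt
Lphn2 12 nt, chr3:148860427-148860438, minus strand: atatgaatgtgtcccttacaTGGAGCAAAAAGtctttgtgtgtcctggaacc
Trappc9 27 nt, chr15:73042177-73042203, minus strand: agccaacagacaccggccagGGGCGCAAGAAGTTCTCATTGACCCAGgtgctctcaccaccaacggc
Ccnl1 14 nt, chr3:65950213-65950226, minus strand: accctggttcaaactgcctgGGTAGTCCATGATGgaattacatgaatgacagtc
Of the 87 distinct microexons that decreased, 70 were matched in this way and 68 of those lay in coding sequence of the matched transcript. Of all 595 distinct microexons detected, 387 were matched and 371 of those lay in coding sequence, so the count for the decreased exons was near this background. Where several transcripts matched, one with the exon in coding sequence was preferred. The Ccnl1 microexon did not lie in coding sequence. The median GC content of the exon itself was 44.4% over 52 matched decreased microexons at a DMSO PSI of 10 to 90 and 50% over 73 matched microexons at the same levels that were not called, which is a description with no test.

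T5635931 lowered the inclusion of many microexons and raised that of few. The rule for calling an event changed was a ∆PSI of 10 or more in size together with a posterior probability above 0.95, drawn from the reads for and against inclusion. Of 597 microexons detected, 88 decreased (14.7%, 95% Wilson interval 12.1% to 17.8%), and 3 increased (0.503%, 0.171% to 1.47%). The 88 events were 87 distinct exons in 83 genes. In 87 of the 88 the treated library was below every DMSO library that passed the coverage filter, the exception being an 18 nt exon of the formin Fmnl1 (69.4, 98.0 and 88.0 in DMSO, 74.0 treated). The median decrease was 18.1 PSI, 31 decreased by 20 PSI or more and 8 by 30 PSI or more. Coverage in the treated library ran from 28 to 10551 reads per decreased microexon, with a median of 287. The Wilson intervals treat exons as independent counts and the posterior covers read sampling only. Neither covers the spread between cultures.

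**Figure D1:**
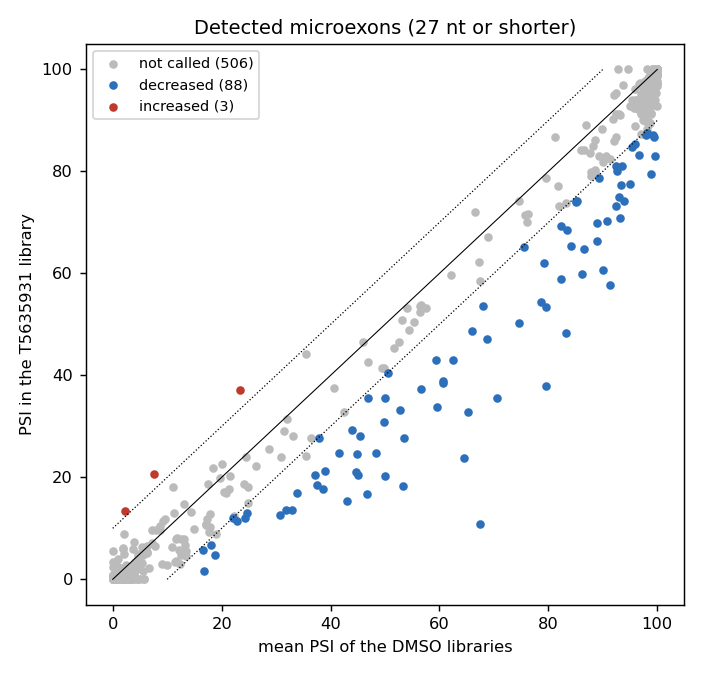
PSI of each of the 597 detected microexons in the T5635931 library (vertical axis, percent) against the mean of the DMSO libraries (horizontal axis, percent). The 88 decreased exons lie below the lower dotted line, 10 PSI under the diagonal, and 3 increased exons lie above the upper one.

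The 15 largest decreases named below were taken among exons with 20 or more treated reads and all 3 DMSO libraries passing. The treated value also had to lie outside the DMSO range, so that position follows from the choice. Exons of Hook2 (∆PSI -35.2), Prom1 (-29.9) and Atl2 (-29.7), with 2 DMSO libraries passing, were left out. Cassette exons, introns and splice sites named as largest were taken under the same limits. The largest decrease was that of a 14 nt microexon of Cdon, a cell surface co-receptor of Hedgehog signalling (mm9 chr9:35283315-35283328). Its PSI was 62.0, 60.8 and 79.8 in DMSO A, B and C and 10.9 in the treated library, a ∆PSI of -56.6. The treated value lay far below all 3 controls, although the controls themselves spread by 10.6 PSI (SD, n = 3). A 24 nt microexon of Clasp2, which stabilises microtubule plus ends (mm9 chr9:113787868-113787891), stood at 82.9, 80.9 and 75.2 in DMSO and at 37.9 with T5635931. A 24 nt microexon of Synj1, the phosphoinositide phosphatase of synaptic vesicle recycling, went from 64.8, 66.4 and 62.5 to 23.9. The Shank2 microexon of 9 nt, in a scaffold of the postsynaptic density, measured 58.3, 64.1 and 37.6 in DMSO and 18.3 with the compound, but on 28 reads. In each of these the treated library was outside the range of the controls, as the choice of exons required. For Shank2 the controls themselves had an SD of 13.9 PSI (n = 3).

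The 12 nt microexon of Scyl2, a clathrin-associated pseudokinase, was included at 81.7, 82.3 and 85.5 in DMSO and 48.3 in the treated library. In Asap2, a GTPase-activating protein for Arf, the microexon listed at 4 nt went from 88.3, 92.2 and 93.4 to 57.8. The 15 nt microexon of Dctn1, the large subunit of the dynein activator dynactin, went from 68.1, 62.2 and 65.3 to 32.8. None of these treated values overlapped the DMSO libraries, which the choice of exons also required. Sh3glb1, an endophilin, had a 24 nt microexon at 42.9, 46.7 and 45.7 in DMSO and at 20.4 with the compound, on 885 reads. The 24 nt microexon of Herc4, a ubiquitin ligase, was at 86.1, 92.8 and 91.0 and then at 60.6, and the 21 nt microexon of Mast2, a microtubule-associated kinase, at 47.0, 48.9 and 33.3 and then at 15.4.

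Exchange factors of small GTPases also stood among the 15 largest decreases. Dock4, which activates Rac, had a 27 nt microexon at 81.4, 78.0 and 79.6 in DMSO and 53.3 in the treated library. Vav2, an activator of small GTPases, had decreases in 2 separate 15 nt microexons, one from 80.1, 85.0 and 93.3 to 59.9 and the other from 74.1, 76.8 and 73.0 to 50.4. Both lay below all controls by more than the spread among them. The remaining exons of the 15 were a 23 nt microexon of Phf21a, a reader of unmethylated histone H3 in the LSD1 complex, at 58.4, 60.1 and 60.4 in DMSO and 33.7 treated, and a 25 nt microexon of the membrane protein Mfsd6 at 53, 51 and 56.6 in DMSO and 27.8 treated. Neither length is a multiple of 3.

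**Figure D2:**
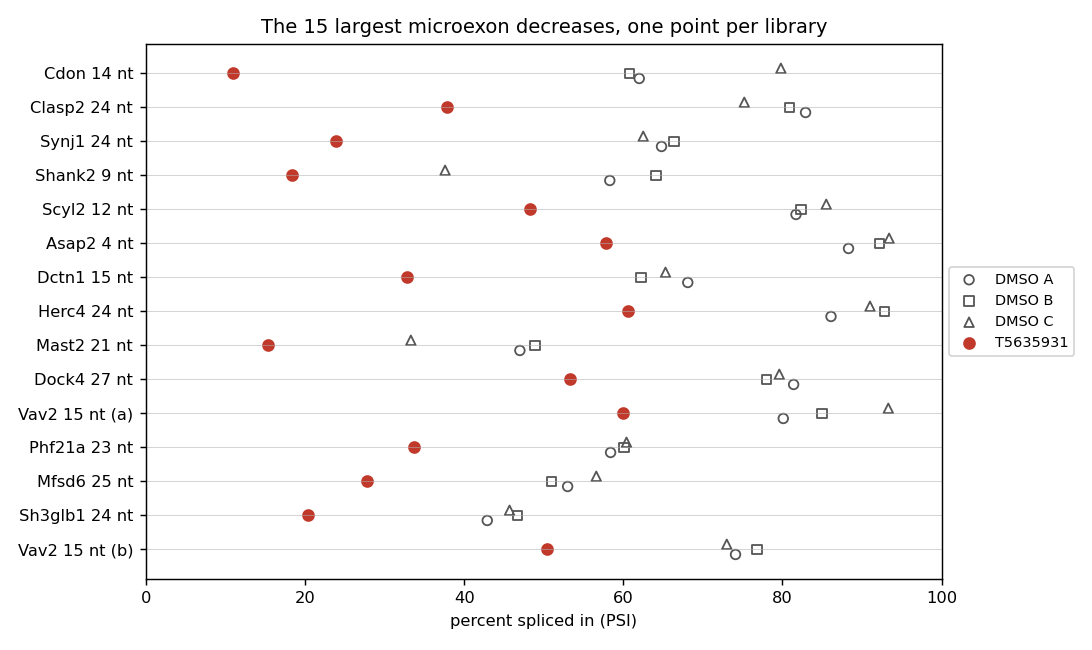
PSI (horizontal axis, percent) of the 15 largest microexon decreases in each of the 3 DMSO libraries (open symbols) and in the T5635931 library (filled circles). Only exons passing in all 3 DMSO libraries were taken. In all 15 exons the treated library lies to the left of every DMSO library, as the choice of exons required.

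Genes with more than 1 decreased microexon included Clasp1, the paralogue of Clasp2, at 68.7 to 47.2 for its 24 nt exon and 33.8 to 16.9 for its 27 nt exon (DMSO mean to treated), and Ptk2, the focal adhesion kinase, at 56.6 to 37.3 for its 18 nt exon and 92.5 to 81.1 for its 9 nt exon. Clasp2 had a second decreased microexon, of 24 nt, at 43.4, 27.9 and 40.4 in DMSO and 20.5 treated. Its microexon of 3 nt stood at 94.9, 96.7 and 96.6 in DMSO and 93.8 with T5635931, and one of 17 nt at 1.4 and 3.0 in the 2 DMSO libraries that passed and 1.8 treated. The microexons of a single gene thus differed in their ∆PSI, from -41.8 to -0.4 in Clasp2. Among deeply covered exons, the 9 nt microexon of Psap, the precursor of lysosomal saposins, was at 45.7, 44.9 and 45.8 in DMSO and at 28.1 on 10551 reads in the treated library. The 21 nt microexon of the translation initiation factor Eif4g1 went from 47.3, 47.5 and 50.2 to 24.7 on 2696 reads, and the 24 nt microexon of Picalm, a clathrin assembly protein, from 30.5, 34.6 and 33.6 to 13.6 on 2388 reads. The clathrin adaptor subunits Ap1g1 (95.3 to 95.6 in DMSO, 84.9 treated) and Ap1s2 (97.4 to 98.8 in DMSO, 87.6 treated) had 9 nt microexons that decreased from near-complete inclusion.

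Further decreases that were large against a small DMSO spread are described here because they also passed the limma test given further on. Abi1 and Nckap1, subunits of the complex that drives actin branching, had a 15 nt microexon at 93.6, 93.7 and 92.1 in DMSO and 70.9 treated and an 18 nt microexon at 85.8, 83.1 and 83.8 and then 65.4. Nbea, a protein of synaptic membrane traffic, had a 9 nt microexon at 85.6, 85.7 and 88.3 in DMSO and 64.8 with the compound. The 9 nt microexon of Asap1, the paralogue of Asap2, went from 92.4, 93.9 and 93.6 to 77.2. In all of these the treated library was below the controls by many times their spread. The dynactin subunit Dctn4 had a 21 nt microexon at 49.3, 49.6 and 50.3 in DMSO and 30.9 treated. The 24 nt microexon of Ckap5, a microtubule polymerase, went from 44.0, 45.3 and 44.9 to 21.1. Erc1, a scaffold of the presynaptic active zone (60.0, 59.5 and 58.7 in DMSO, 42.9 treated), Myo5a, a myosin motor (97.5, 98.4 and 98.0, then 87.1), and Senp6, a SUMO protease (93.4, 93.0 and 92.8, then 74.9 in one of 2 events of the same exon), were lowered as well. Their starting levels ran from the middle of the range to near-complete inclusion.

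Exons of the genes that the study assayed by RT-PCR behaved in more than one way. The 21 nt microexon of Mef2d, a neuronal transcription factor and the exon built into the screening reporter, measured 89.5, 88.7 and 88.7 in DMSO and 69.9 with T5635931, a ∆PSI of -19.1 against a DMSO SD of 0.5 PSI (n = 3). The 15 nt microexon of Ergic3, a protein of early secretory membranes, went from 33.9, 39.8 and 42.0 to 17.6. The 12 nt microexon of Lphn2 (now Adgrl2), an adhesion receptor of synapses, went from 17, 15 and 18.5 to 1.7, close to full skipping. Each of these was outside the DMSO range. A 27 nt exon of Snx14, a sorting nexin, stood at 51.6, 46.9 and 42.4 in DMSO and 35.5 treated, and a 15 nt exon of the cell adhesion molecule L1cam at 80.3, 86.8 and 87.8 and then 74.3. Both decreases were close to the 10 PSI limit, with ∆PSI values of -11.5 and -10.7. Without DMSO A the Snx14 value was -9.13, and without DMSO B or C the L1cam value was -9.81 or -9.29, so these calls were lost.

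Other assayed microexons did not pass the rule. Pus7, a pseudouridine synthase, went from 14.9, 11.7 and 10.2 to 3.1 (∆PSI -9.2), below all controls. Without DMSO C its ∆PSI was -10.25, which would be called. Zmynd8, a chromatin reader, stood at 52.2, 53.4 and 49.2 in DMSO and 45.3 treated, and the 12 nt exon of L1cam at 42.6, 41.4 and 38.1 and then 37.5. Trappc9, a subunit of a vesicle tethering complex, was at 29.7, 31.6 and 33.2 in DMSO and 29.2 with the compound. Among longer assayed exons, the 36 nt exon of the palmitoyltransferase Zdhhc20 (29, 41.4 and 31.3 in DMSO, 16.9 treated) and a 45 nt exon of Asph, an aspartate hydroxylase of the endoplasmic reticulum (70.8, 56.5 and 57.4 in DMSO, 30.5 treated), decreased. A 48 nt exon of Asph was at 32.3, 20.9 and 25.7 in DMSO and 33.0 treated, and the 45 nt exon of the ubiquitin ligase Mgrn1 at 25.6, 16.8 and 17.1 and then 15.4, and neither was called. The study set Mast2, Zdhhc20, Ergic3 and Asph in its assays as exons that depend on Srrm4, and Mgrn1 and Trappc9 as exons that do not. Which of the Asph exons was assayed is not settled here, and no exon of Rest, another assayed gene, passed at a DMSO PSI of 10 to 90.

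The 3 increased microexons were small changes. A 14 nt microexon of Ccnl1, a cyclin that associates with splicing factors, was at 9.1, 8.6 and 4.9 in DMSO and 20.6 treated on 363 reads. A 21 nt exon of Arhgef40, a guanine nucleotide exchange factor, was at 30.7, 8.8 and 30.4 in DMSO and 37.1 treated, and a 4 nt exon of Brp44l (now Mpc1), a subunit of the mitochondrial pyruvate carrier, at 0.0, 0.0 and 6.6 and then 13.5. The Arhgef40 call rested on DMSO B, and without that library its ∆PSI was 6.59. The Brp44l call was lost without DMSO A and without DMSO B, at a ∆PSI of 10.17 in each case.

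Decreases were spread over the whole length range of microexons and thinned out in longer exons. To compare lengths at similar starting levels, exons with a DMSO PSI of 10 to 90 were used. In this range 67 of 157 microexons decreased (42.7%) and 1 increased (0.637%), and of 2754 longer cassette exons 262 decreased (9.51%) and 207 increased (7.52%). By length, the share that decreased was 51.9% (14 of 27) at 3 to 9 nt, 45.9% (17 of 37) at 10 to 15 nt, 38.2% (13 of 34) at 16 to 21 nt and 39.0% (23 of 59) at 22 to 27 nt, with Wilson intervals that overlap each other (34% to 69.3% for the shortest, 27.6% to 51.7% for the longest). At 28 to 50 nt it was 16.7% (45 of 270, 12.7% to 21.6%), and at 51 to 100 nt 10.1% (108 of 1069, 8.44% to 12.1%). The share that increased was 4.81% at 28 to 50 nt, 8.51% at 51 to 100 nt and 7.59% above 100 and up to 150 nt, where 7.96% decreased. Over 300 nt, 6 of 91 exons decreased (6.59%, 3.06% to 13.6%) and 10 increased (11%).

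**Figure D3:**
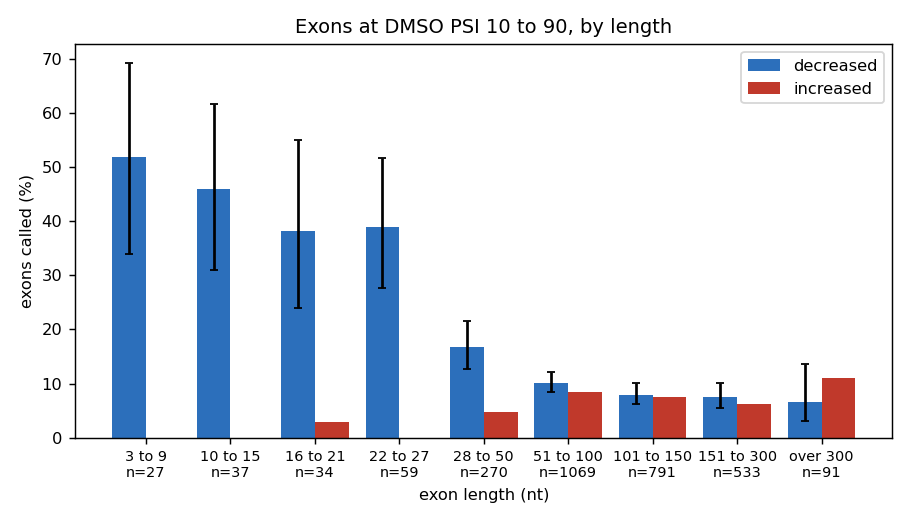
Share of exons (vertical axis, percent) called decreased or increased with T5635931, by exon length (horizontal axis, nt), for exons with a DMSO PSI of 10 to 90. Bars start at 0, error bars on the decreased share are 95% Wilson intervals, and the share that decreased falls from 51.9% at 3 to 9 nt to 16.7% at 28 to 50 nt.

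The shift lay at intermediate starting levels, where it went beyond the called exons. Over all 597 microexons the median ∆PSI was -0.65, with 0.0 below a DMSO PSI of 10 and -0.55 at 90 or more. At a DMSO PSI of 10 to 90 the treated PSI was below every passing DMSO library for 121 of 157 microexons (77.1%) and above every one for 6 (3.82%). The median ∆PSI there was -8.68, and these 157 include the 67 called as decreased. Among 2754 longer cassette exons 36% were below and 26.1% above, with a median ∆PSI of -0.93. The share of microexons that decreased depended on the starting level, at 16.3% (8 of 49) for a DMSO PSI of 10 to 30, 62.9% (22 of 35) at 30 to 50, 51.6% (16 of 31) at 50 to 70, 50% (21 of 42) at 70 to 90 and 9.68% (21 of 217) at 90 or more. No exon below a DMSO PSI of 10 can fall by 10 PSI. Of the decreased microexons in the middle range 62 of 67 (92.5%) had a length that is a multiple of 3, beside 80 of 89 (89.9%) of those not called. Their median upstream and downstream introns were 1563 and 1456 nt long, beside 1311.5 and 2139.5 nt for those not called (67 and 88 exons with both introns given). These are descriptions with no test.

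At the limit of the call, the 9 nt microexon of Ap1b1 (50.6 in DMSO, 40.5 treated, ∆PSI -10.06) was the last one inside and the 15 nt microexon of Ssr1 (18.9 and 9.0, ∆PSI -9.94) the first outside. Because the posterior uses reads alone, limma was also run on arcsine square root PSI across all 556 microexons with all 4 libraries, assuming that the lone treated library varies as the DMSO libraries do. By limma with Benjamini-Hochberg adjustment 22 microexons passed an adjusted p of 0.05 with a decrease of at least 10 PSI, and 0 with an increase (1 at an unadjusted p under 0.05). Those 22 included Ap1g1 (adjusted p = 0.00385), both Senp6 events (0.00632 and 0.0323), Mef2d (0.0104), Abi1 and Synj1 (0.0261 each), Ckap5 (0.0281), Phf21a (0.0323), Scyl2 (0.0361), Lphn2 (0.0385), Dock4 (0.0399), Eif4g1 (0.0434), Sh3glb1 (0.0438) and one Vav2 exon (0.0494). Of the 15 largest decreases 6 passed and 9 did not. The limma adjusted p of those 9 was 0.0509 for Dctn1, 0.0533 for Clasp2, 0.0534 for Asap2, 0.0622 for Mfsd6, 0.0976 for Herc4, 0.13 for Cdon, 0.216 for Mast2, 0.272 for the other Vav2 exon and 0.319 for Shank2.

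Longer cassette exons changed less often, and in both directions. Of 57229 detected, 500 decreased (0.874%) and 221 increased (0.386%), and most detected cassette exons were at a DMSO PSI of 90 or more (52801). An 81 nt exon of Reep6, which shapes the endoplasmic reticulum, was at 88.0, 81.6 and 86.5 in DMSO and 42.0 treated. A 30 nt exon of Meaf6, a subunit of histone acetyltransferase complexes, went from 60.1, 56.0 and 68.6 to 22.5 on 431 reads, and a 70 nt exon of Parp6, an ADP-ribosyltransferase, from 90.2, 90.1 and 86.9 to 56.8. These treated values were far below all controls, where the choice of exons required a value outside their range. A 54 nt exon of Madd, an exchange factor for Rab3, went from 57.3, 47.5 and 54.5 to 23.3. A 33 nt exon of Acbd5, which tethers peroxisomes to the endoplasmic reticulum, went from 70.8, 70.7 and 72.0 to 41.8 and was the only one of the 8 largest cassette decreases that also passed limma (adjusted p = 0.0115). The rest of the 8 were the Asph exon above, a 55 nt exon of Ankrd45 (69.8, 58.0 and 83.4 in DMSO, 41.2 treated) and a 33 nt exon of the flippase Atp9b (50.4, 37.9 and 40.2 in DMSO, 13.8 treated). All 8 were 81 nt or shorter.

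The largest cassette increase was a 107 nt exon of Cln6, a membrane protein of the endoplasmic reticulum needed for lysosome function, at 22, 29.3 and 20.6 in DMSO and 66.7 treated. A 141 nt exon of Ng23 was at 18.3, 25.7 and 17.6 and then 60.0 on 44 reads, and a 90 nt exon of the glucosyltransferase Alg6 at 51.1, 42.5 and 40.3 and then 76.4. The treated values were above all controls, as the choice of exons required. A 164 nt exon of Phf21a, next to the 23 nt microexon of that gene, rose from 42.4, 35.2 and 37.2 to 68.7 while the microexon fell. A 40 nt exon of the zinc finger gene Zfp54 rose from 15.3, 15.9 and 24.6 to 48.6. None of these 5 passed limma.

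Intron retention changed at a low rate with T5635931, and the balance of directions depended on the starting level. Of 86302 introns detected, 286 were retained more (0.331%) and 139 less (0.161%). An intron below a DMSO level of 10 can rise by 10 but cannot fall by 10, so these counts do not compare the directions. At a DMSO level of 10 to 90, where either change is possible, 110 were retained more and 135 less. Over all introns, the counts without DMSO A were 284 more and 209 less, and with 20 or more reads in every library 152 and 74. Intron retention is given as the percent of transcripts that keep the intron. In Eme2, a subunit of a structure-specific nuclease, a 71 nt intron was at 46.9, 50.9 and 45.4 in DMSO and 83.3 treated on 22 reads (limma adjusted p = 0.0257). A 1026 nt intron of Bin1, which bends membranes, went from 28.2, 42.4 and 40.2 to 76.7, and a 343 nt intron of the cullin Cul9 from 25.9, 19.6 and 15.6 to 60.0 on 20 reads. All of these were above every control, as the choice of introns required, and on few reads. Retention of a 379 nt intron of Foxred2 was 27.4, 61.9 and 28.6 in DMSO and 78.5 treated, and of a 210 nt intron of the kinase Map3k11 58.6, 44.0 and 89.4 and then 100, in both cases with controls that spread widely (SD 19.6 and 23.2, n = 3).

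Among introns retained less, a 697 nt intron of Tmem149 was at 100 in all 3 DMSO libraries and 71.8 in the treated one (limma adjusted p = 0.000382). A 1294 nt intron of the hydrolase Abhd14b went from 36.5, 50 and 53.3 to 14.3. Introns of 1600012H06Rik (74.7, 62.1 and 90.9 in DMSO, 45.0 treated), Nbeal2 (10.0, 40.0 and 50, then 4.6) and Atp5sl (50, 60.0 and 23.5, then 19.3) made up the other 3 of the 5 largest. Their treated values were below all controls, but the controls of Nbeal2 and Atp5sl had SDs of 20.8 and 18.8 (n = 3). The median length was 309 nt for introns retained more, 353 nt for those retained less and 319 nt for those not called, at a DMSO level of 10 to 90.

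Alternative splice sites moved in small numbers. At 3′ splice sites 436 of 30400 changed (1.43%), in 233 sets of competing sites, and at 5′ splice sites 469 of 22330 (2.1%), in 254 sets. The sites of a set sum to 100, so an increase at one is a decrease at another. A site of Dopey1 that adds 27 nt was used at 48.6, 59.4 and 34.8 in DMSO and at 79.9 treated, and one of Rpl10a that adds 3 nt at 15, 54.1 and 51.2 and then at 69.0. The treated value was above all controls in both, as the choice of sites required, with controls of Rpl10a spread by 21.8 PSI (SD, n = 3). Rpl10a, a ribosomal protein gene, has processed pseudogenes whose reads may be shared with it. At 5′ sites, the site of the zinc finger gene Zfp191 that leaves out 386 nt was used at 14.3, 23.3 and 11.9 in DMSO and 55.6 treated. The corresponding values were 4.8, 4.6 and 0.0 and then 37.9 for Prosapip1, a protein of the postsynaptic density, on 29 reads, and 17.3, 22.2 and 16 and then 49.8 for Strada, which activates the kinase LKB1. None of these 5 sets passed limma.

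Gene expression was given as 1 RPKM value per gene for the treated library and 1 for the 3 DMSO libraries together, so no test was possible and a gene counts as changed past a 2-fold difference on the log2(RPKM + 0.5) scale with more than 5 RPKM in either condition. Of 9689 genes over that level 149 were up (1.54%) and 172 down (1.78%), with a median log2 ratio of -0.01. The counts and their order depended on the level filter, with 449 up and 349 down over 1 RPKM and 608 and 464 with no filter. Of the 149 genes up, 89 were at or under 5 RPKM in DMSO and passed the filter through the treated library alone. Of the 9397 genes over 5 RPKM in DMSO 60 were up (0.639%) and 172 down (1.83%), a filter that keeps every fall and leaves out rises from low levels. In bulk RNA, fewer cells of a kind and less RNA per cell cannot be told apart. Of the 83 host genes of decreased microexons 76 were over 5 RPKM, with 0 up, 0 down and a median log2 ratio of 0.00. Over all 456 expressed genes with a detected microexon 0 were up and 2 down, with a median of -0.04, so the count for the 76 was near this background.

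The regulators of microexons themselves moved unequally. Srrm4 stood at 10.4 RPKM in DMSO and 7.51 RPKM in the treated library (log2 ratio -0.45) and Srrm3 at 18.5 and 11.5 RPKM (-0.66), neither past 2-fold. Their cofactors Srsf11 (104 and 122 RPKM) and Rnps1 (110 and 125 RPKM) had log2 ratios of 0.22 and 0.18. Rbm38, an RNA-binding protein described as a negative regulator of microexons, was up from 40.6 to 149 RPKM (log2 ratio 1.87). Of 28 neural splicing factors 27 were found in the table and 18 were expressed, with 0 up and 1 down. That gene was Celf3, at 105 RPKM in DMSO and 42.7 RPKM treated (-1.29). Elavl4, a neuronal RNA-binding protein, was at 131 and 81.8 RPKM (-0.68), and Ptbp1, a repressor of neuronal exons, at 476 and 657 RPKM (0.46). None of 31 SR and hnRNP protein genes and none of 42 core spliceosome genes passed 2-fold, with log2 ratios from -0.74 for Prpf31 to 0.63 for Sf3b4.

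The largest rises and falls named here leave out predicted and clone-named genes, pseudogenes, small RNAs, ribosomal proteins and genes at 0 RPKM in either condition. Among the rest the gene with the largest rise was Gadd45b, a stress-induced regulator of MAP kinase signalling and DNA demethylation. It was at 6.21 RPKM in DMSO and 265 RPKM in the treated library (log2 ratio 5.31). Sgk1, a kinase of ion transport and stress, was up from 36.7 to 307 RPKM (3.05), Sertad1, a regulator of E2F and CDK4, from 6.26 to 46.7 RPKM (2.80), and the transcription factor Fos from 2.87 to 19.4 RPKM (2.56). The remaining genes of the 12 largest rises were Actc1, cardiac actin (0.05 to 7.85 RPKM), the cyclin Ccno (0.5 to 7.87), the vasodilator peptide gene Adm (0.98 to 10.0), the small GTPase Rasl11b (1.96 to 11.9), the mitochondrial protein Mgarp (5.57 to 29.9), Ccnb1ip1 (5.22 to 24.8), the dopa decarboxylase Ddc (5.24 to 23.1) and the circadian repressor Ciart (6.51 to 25.2). Most of them were low in DMSO, where Sgk1 was the only one above 10 RPKM, and Actc1, Ccno, Adm, Fos and Rasl11b were under 5 RPKM and passed the filter through the treated library alone.

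Falls were smaller. Cdkn3, a phosphatase of cyclin-dependent kinases, was down from 18 to 3.18 RPKM (log2 ratio -2.33), and Knstrn, a kinetochore and spindle protein, from 115 to 41.3 RPKM (-1.46). Krcc1 went from 52.2 to 17.9 RPKM (-1.52), Acyp1, an acylphosphatase, from 26.8 to 7.91 (-1.70), the neuronal protein gene Nrep from 16.7 to 5.23 (-1.59) and Srxn1, which repairs oxidised peroxiredoxins, from 12.7 to 4.15 (-1.50). Chpf2, Slc26a10, Sapcd2, Senp8, Rsc1a1 and Cyb5rl completed the 12 largest falls, with log2 ratios from -1.73 to -1.47. The 12 lie at lower fold changes than the 12 rises, whose log2 ratios ran from 1.87 to 5.31. Over all 9689 genes 49 were up and 22 down past 4-fold, so most falls of that size are not among the 12.

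**Figure D4:**
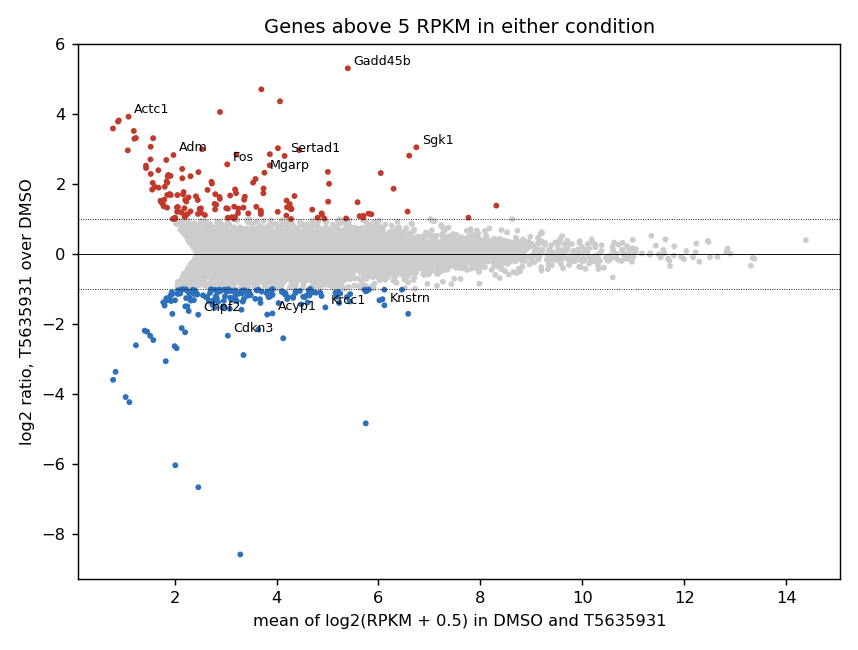
Log2 ratio of RPKM, T5635931 over DMSO (vertical axis), against mean log2(RPKM + 0.5) of both conditions (horizontal axis), for the 9689 genes above 5 RPKM in either. Dotted lines mark 2-fold, 149 genes are above the upper line and 172 below the lower one, and among the labelled genes Gadd45b stands highest at 5.31.

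Among immediate early genes, which respond to stimuli without new protein synthesis, Fos, Arc (4.55 to 16.4 RPKM), Klf4 (1.99 to 7.61), Nr4a2 (3.79 to 12.3) and Dusp1 (4.77 to 12.4) were past 2-fold. All 5 were under 5 RPKM in DMSO and passed the filter through the treated library alone, so their number is no measure of the list of 17. Of its 5 members over 5 RPKM in DMSO 0 were up or down, with Jun at 15.9 and 16.8 RPKM (log2 ratio 0.08), Egr1 at 16.8 and 13.6 RPKM (-0.30) and Nr4a1 at 6.21 and 12.6 RPKM (0.96). Of 10 genes of the elongation factor P-TEFb and the BET bromodomain proteins, 2 were up. These were Hexim1, which holds P-TEFb inactive (11.2 to 30.9 RPKM, log2 ratio 1.43), and Brd2 (196 to 512 RPKM, 1.38), while the kinase Cdk9 was at 27.8 and 43.6 RPKM (0.64). Heat shock genes had 2 of 10 up (Bag3 at 1.21, Hsph1 at 1.04), MAPK feedback genes 2 of 14 (Phlda1 and Ier3), and the integrated stress response 1 of 18 up (Ddit4, 1.02) and 1 down (Chac1, -1.23). Atf4, the factor at the centre of that response, was at 309 and 337 RPKM (0.13). Of the hypoxia list, 0 of 9 genes over 5 RPKM in DMSO were up or down, while Adm and Ankrd37 (4.31 to 16.8 RPKM) were past 2-fold from below that level. These counts have no replicate check and stand beside 1.54% up and 1.78% down over all expressed genes.

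At those background shares, lists without a changed member say little. No member was called among 12 expressed p53 targets, 15 genes of the unfolded protein response, 26 of sterol and fatty acid synthesis, 30 of the cell cycle and replication, 11 microtubule genes or 2 targets of the aryl hydrocarbon receptor. In the p53 list Cdkn1a was at 11.6 and 16.8 RPKM and Sesn1 at 9.95 and 16.1 RPKM. Of 9 metal and oxidative stress genes 0 were up and 1 was down (Srxn1), and Hmox1, heme oxygenase, was at 94.6 and 184 RPKM (0.96). Of the 21 expressed genes on the neuronal and neuroendocrine list, Rest among them, none was called. The lowest log2 ratios were at Mapt, which encodes tau (50.2 and 25.4 RPKM, -0.97), and Eno2 (20.8 and 11.4 RPKM, -0.84). Syp, Chga and Snap25 had log2 ratios of -0.14, 0.05 and -0.12. None of the 10 expressed lineage factors was called either, with Gata3 at 7.34 and 15.1 RPKM, at the limit (0.99 with the 0.5 RPKM pseudocount).

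The changed protein-coding genes were short, and many changed genes, more so among those up, are not protein-coding. Of the 149 genes up, 69 (46.3%) are protein-coding in GENCODE vM21, beside 121 of the 172 down (70.3%) and 94.3% of all 9689. The protein-coding genes up spanned a median of 5.6 kb and those down 9.6 kb, beside 24.7 kb for all expressed protein-coding genes, and 46.4%, 24.0% and 9.75% of them spanned less than 5 kb. Their median level in DMSO was 5.6, 14.4 and 26.6 RPKM, so the genes up were also low in DMSO, and the part of expression level in the difference of span was not tested. With the filter on DMSO alone, 39 of the 60 genes up and 121 of the 172 down were protein-coding. Those up had a median span of 5.6 kb and those down 9.6 kb, beside 24.9 kb for all. Of small nuclear RNA (snRNA) genes 21 were up, 11 of which passed the filter only through the treated library, and 1 was down. Among the 17 snRNA genes over 5 RPKM in DMSO 10 were up and 1 down. Of small nucleolar RNA genes 19 were up, 14 of them through the treated library alone, and of the 65 over 5 RPKM in DMSO 5 were up and 7 down. Examples chosen after their values were seen are Rnu12, the U12 RNA of the minor spliceosome (2.05 to 66.0 RPKM, so under the filter in DMSO), Rnu1a1, a U1 RNA (29.1 to 147 RPKM), and Snord118, the U8 RNA (5.22 to 46.0 RPKM), while Rn7sk, the RNA that binds P-TEFb, was at 49.1 and 51.8 RPKM. These RNAs normally have no polyA tail and are very short, so in a polyA-selected library their values cover only the copies that were captured.

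By its share of decreased microexons, T5635931 stood between other microexon inhibitors of the series, each of which was also measured in 1 library against these same 3 DMSO libraries. Of the microexons detected, 21.7% decreased with T5985871 (118 of 545), 15.3% with T5758020 (91 of 593) and 10.0% with T5963258 (59 of 589), all at 6.7 µM, and 21.3% (125 of 588) with AW00693 at 5 µM, beside 14.7% with T5635931. In the direct comparison of treated libraries at the same dose, which does not use the controls, 67 of 544 microexons had a higher PSI with T5635931 than with T5985871 (12.3%) and 9 a lower one (1.65%). Against T5758020 the counts were 11 of 594 higher (1.85%) and 6 lower (1.01%), and against T5963258 5 of 585 higher (0.855%) and 23 lower (3.93%). These comparisons are between single libraries.

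For the 15 largest decreases as chosen above, the difference between compounds was given a 95% interval from the reads. Against T5963258 the PSI with T5635931 was lower beyond the interval in 10 of 15 and higher in 0, against T5758020 lower in 5 of 15 and higher in 0, and against T5985871 lower in 1 of 13 and higher in 7. These exons were chosen for their size with T5635931, which favours lower values there, so the counts are a description. Dock4 was at 53.3 with T5635931 and 22.4 with T5985871, a difference of 31 (25.0 to 36.4), and at 53.3 with T5963258, a difference of 0.0 (-5.5 to 5.5). Shank2 was at 18.3 with T5635931, at 48.7 with T5758020 (difference -30.4, -45.2 to -9.1) and at 60.8 with T5963258 (-42.5, -60.8 to -16.7), on few reads. The Dctn1 exon was lower with T5635931 (32.8) than with T5985871 (44.8), T5758020 (42.4) and T5963258 (48.2), and each interval left out 0. Mef2d was at 69.9 with T5635931 and 69.4 with T5758020 (difference 0.4, -6.2 to 7.0), 54.6 with T5985871 and 83.8 with T5963258. The 15 nt exon of L1cam was at 74.3 with T5635931 and at 55.4 with T5985871 and 58.5 with T5963258, differences of 18.9 (3.3 to 34.1) and 15.8 (1.6 to 29.2), while the interval against T5758020 (61.6) ran from -0.5 to 25.2.

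**Figure D5:**
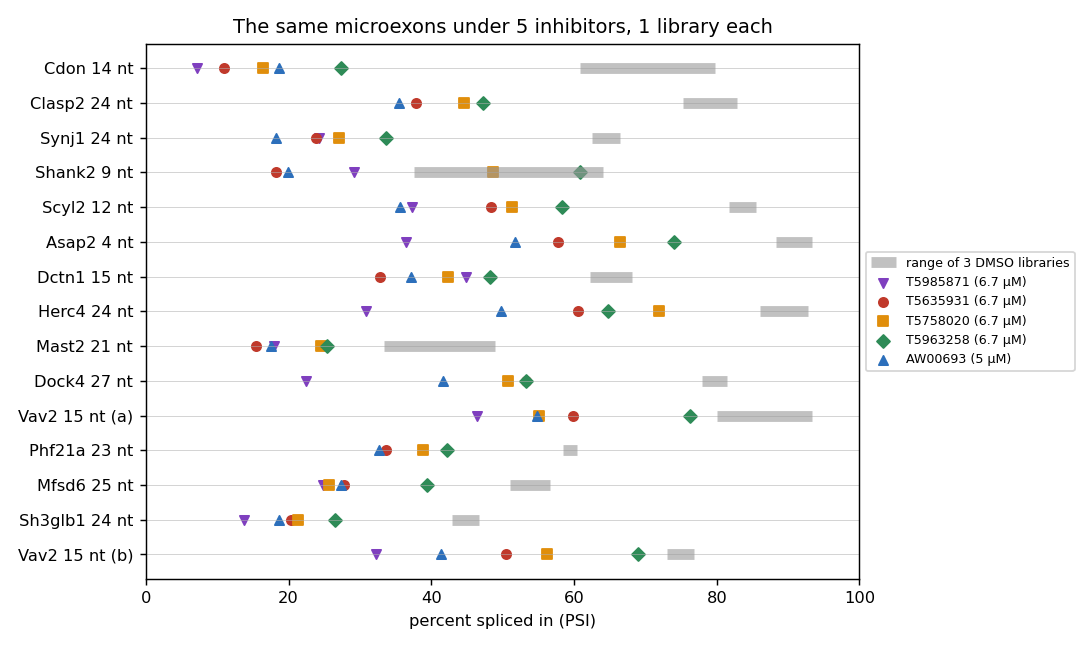
PSI (horizontal axis, percent) of the 15 microexons with the largest decreases under T5635931, in 1 library for each of 5 inhibitors. The exons were taken among those passing in all 3 DMSO libraries, whose range is shown as grey bars. T5635931 lies to the left of T5963258 in every exon except Dock4, where both are at 53.3, and for Shank2 T5758020 and T5963258 lie within the DMSO range.

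The inhibitors also differed in how many genes passed 2-fold, with 321 for T5635931, 1424 for T5985871, 264 for T5758020, 143 for T5963258 and 496 for AW00693. Gadd45b was at 265 RPKM with T5635931, 1128 RPKM with T5985871, 52.4 RPKM with T5758020, 15.1 RPKM with T5963258 and 443 RPKM with AW00693, and Srrm4 at 7.51, 3.34, 8.02, 10.2 and 5.93 RPKM in the same order. Rbm38 was at 149, 271, 79.1, 58.3 and 160 RPKM. All of these share the DMSO value they were set against.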

How the data were processed

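PolyA+ RNA of N2A cells was sequenced by the authors, who deposited inclusion levels per splicing event in percent (PSI, or percent retained for introns), from vast-tools on mm9 per the labels, with corrected inclusion and exclusion reads per library in a quality column of another unit, and RPKM per gene and condition, from Salmon (version 0.10.2 in the submitters' processing notes) with the DMSO libraries merged by the authors. The table also holds the authors' own fold changes and significance flags, which were not used. The compound name and dose come from the study's compound list.

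Exon events were kept with a vast-tools coverage score of LOW or better and either balanced junctions or no balance score given. Introns were kept where 15 or more reads were found and the balance test gave a p over 0.05. Each event had to pass in the treated library and at least 2 of 3 DMSO libraries. Posterior probabilities came from 2000 draws of beta distributions of reads plus 1, averaged over DMSO libraries. Calls needed 10 PSI and a posterior above 0.95. limma 3.58.1 was run on arcsine square root PSI of events in all 4 libraries. Python 3.11.15 and numpy 2.4.6 were used.

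Named microexons were the 15 largest decreases and up to 5 increases with 20 or more reads, all 3 DMSO libraries passing and the treated value outside their range, plus the exons the study assayed. Cassette exons (8 down, 5 up), introns (5 each way), alternative sites (3 each way) and genes (12 each way, without predicted genes, clone-named genes, pseudogenes, small RNAs and ribosomal proteins) followed the same limits. Clone-named genes were counted as predicted genes, and other microexons that are named were chosen, after their values were seen. Members and lists were chosen with earlier results of these data known. One neural splicing factor name was not found in the expression table. The labels name 3 DMSO replicates and the study's reporting summary 2 biological replicates, without saying which libraries share a culture. The filter on DMSO alone and on the mean of both conditions was added after the data were seen. Wilson intervals treat exons as independent counts, posteriors cover read sampling only, and neither covers the spread between cultures. Some events that the rule names are not reported here.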

Additional observations from a re-analysis of the deposited data

How the results depend on the processing

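Under a 15 PSI limit in place of 10, 57 microexons decreased and 0 increased, 163 and 88 longer cassette exons did so, 77 introns were retained less and 132 more, and 183 3′ and 197 5′ sites changed. With limma in place of the posterior, the counts were 22 and 0 microexons, 43 and 4 cassette exons, 6 and 15 introns, and 8 and 3 sites, from events in all 4 libraries only. With 20 or more reads in every library, 74 introns were retained less and 152 more, from fewer introns, and the other counts stayed within 1.5 times of the first. Requiring the treated value to lie outside the DMSO range or summing the DMSO reads kept every count within 1.5 times.

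Leaving out 1 DMSO library at a time gave 88 to 93 decreased and 2 to 3 increased microexons, 522 to 556 and 250 to 295 cassette exons, 169 to 209 introns retained less and 284 to 333 more, and 495 to 541 and 521 to 528 sites. Introns retained less were 209 without DMSO A. Of the 88 decreased microexons 45 were 15 nt or shorter, and 67 microexons and 262 cassette exons that decreased had a DMSO PSI of 10 to 90. Over 1 RPKM 449 genes were up and 349 down, and with no filter 608 and 464. With a level over 5 RPKM in DMSO, 60 were up and 172 down, and in the mean of both conditions 94 and 137, both filters being chosen after seeing the data. Other pseudocounts or centring on the median moved neither count by 1.5 times. No named event or gene changed its direction under any of these, but of the 68 named events that limma could be run on, 49 lost their call there, and 19 of 69 named events stayed the same under all splicing alternatives. The 24 named genes were tried only under the expression alternatives, where 17 stayed the same.

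No paired analysis was possible because T5635931 has 1 library and shares no pairing with the DMSO libraries. The single treated library and the merged DMSO expression value limit every gene statement to a difference between those values, and 28 reads, as for Shank2, give wide intervals.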
